A study of Mus musculus with 6 samples.

Results

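The type I interferon signature was taken as 10 genes chosen by name, Ifit1, Ifit2, Ifit3, Isg15, Usp18, Rsad2, Cmpk2, Mx1, Ifi44 and Rtp4, out of 24965 genes in the table. All 10 were listed and all 10 were among the 13739 genes tested. RNA-seq was performed on donor hematopoietic stem and progenitor cells (HSPCs) that had been in recipient mice for 6 h, with 3 WT and 3 Hemgn-/- replicates. Donors were C57BL/6 mice carrying CD45.2, either WT or with Hemgn disrupted in the whole body by zinc finger nucleases, and the recipients of both groups carried CD45.1 and had been irradiated with 9 Gy in a split dose before bone marrow transplantation (BMT). Hemgn encodes a nuclear regulator of blood cell development. The study describes the sorted cells as lineage-negative, Sca-1-positive and c-Kit-positive, whereas the labels leave out c-Kit, so the gate itself is uncertain. No untransplanted sample was analysed here, so every comparison is between genotypes after transplantation.

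Type I interferons (IFN-α and IFN-β) bind a receptor made of IFNAR1 and IFNAR2, which activates the kinases JAK1 and TYK2. The kinases switch on the transcription factor complex ISGF3, which holds STAT2 and IRF9 and binds the interferon-stimulated response element (ISRE) of antiviral genes. IFN-γ acts through another receptor, and many genes answer to both kinds of interferon. In the bone marrow, interferons are known to push dormant stem cells into cycle and, when prolonged, to impair them.

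Promoter stretches are shown because the ISRE is the element at which ISGF3 binds such genes. RefSeq promoter windows (GRCm38.p6, 250 bases before to 50 bases after the start) matched 7 of the 10 genes, and Usp18, Mx1 and Rtp4 were not matched. The core letters searched were GAAANNGAAA and, on the other strand, TTTCNNTTTC, and overlapping matches were all kept. They occurred in 3.44% of 32851 promoters and in those of 4 of the 7 matched genes. The stretches holding the matches are given 5′ to 3′ on the strand of the gene, with the matched letters in capitals. The Ifit1 stretch is chr19:34640770-34640828 on the plus strand, Ifit3 is chr19:34583358-34583431 on the plus strand, Isg15 is chr4:156200860-156200911 on the minus strand and Rsad2 is chr12:26456548-26456587 on the minus strand.
Ifit1: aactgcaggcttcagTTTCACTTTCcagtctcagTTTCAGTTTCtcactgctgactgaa
Ifit3: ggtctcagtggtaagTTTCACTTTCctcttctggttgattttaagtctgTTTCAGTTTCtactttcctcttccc
Isg15: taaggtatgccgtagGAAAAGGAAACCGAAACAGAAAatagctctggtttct
Rsad2: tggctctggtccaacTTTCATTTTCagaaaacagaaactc

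In these windows Ifit1 held 2 matches, starting 104 and 85 bases before the transcription start, and Ifit3 held 2, at 156 and 122 bases. Isg15 held 3 matches, each overlapping the next, that start between 78 and 66 bases before the transcription start, and Rsad2 held 1 at 120 bases. No match was found in the windows of Ifit2, Cmpk2 and Ifi44, which says only that these letters are not in the bases searched. The letters of a gamma-activated site, TTCNNNGAA, which reads the same on both strands, occurred in 8.30% of all promoters and in 1 of the 7 matched genes, Ifit2.

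Before the genes are compared, 3 properties of the libraries bear on them. The recovered depth was 23668025 to 28897360 fragments per library. Levels are in FPKM, fragments per kilobase of exon scaled to the library total. Hemgn itself had 5.64, 2.96 and 4.68 FPKM in WT and only 0.755, 0.913 and 1.60 FPKM in Hemgn-/- libraries, so its transcript was lower but present, with no overlap. Of the HSPC genes, Kit was at 5.50 to 7.24 FPKM, Ly6a, which encodes Sca-1, at 8.27 to 17.3, Cd34 at 7.23 to 11.9 and Mecom at most 0.415 FPKM, while the neutrophil granule gene Ngp averaged 44876 FPKM in WT and 27132 in Hemgn-/- libraries. Sort markers were thus present beside an abundant neutrophil granule transcript, which goes against a pure HSPC label, and the samples are called the sorted donor cells below. In bulk RNA a lower number of cells of a type and less RNA per cell cannot be told apart.

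All 10 signature genes were higher in every Hemgn-/- library than in any WT library. Of these, 8 rose at an adjusted p under 0.05 (limma on log2(FPKM + 1), Benjamini-Hochberg over all genes tested), and none fell. Isg15 and Cmpk2 were the 2 that did not pass. Over all genes tested 4.37% were called higher and 2.09% lower, and 19.2% were higher with no overlap between the groups. The ratio of group means ran from 1.10 for Cmpk2 to 2.13 for Mx1. The median log2 fold change was 0.58 over the 10 genes and 0.09 over all genes tested. At thresholds of p under 0.05 and 1.5-fold, with the fold on log2(FPKM + 1), 5 of the 10 passed, against 4.10% of all genes in that direction. Ifit1, Ifit3, Isg15, Cmpk2 and Rtp4 fell short of them, with Rsad2 just inside at a log2 fold change of 0.59 and Ifit3 just outside at 0.58. The added 1 decides this for Isg15, whose ratio of group means was 1.52, and with a pseudocount of 0.1 the changes of Isg15 and Ifit3 were 0.60 and 0.59, past 1.5-fold. The balance of calls over all genes, 600 higher and 287 lower, moved with the scaling. It was 369 and 350 with quantile normalization and 1049 and 238 with a common FPKM total, and lower calls outnumbered higher ones, 386 against 341, with median-ratio scaling. Under each of these 3 scalings, all 10 genes kept a fold change above 0.

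**Figure D1:**
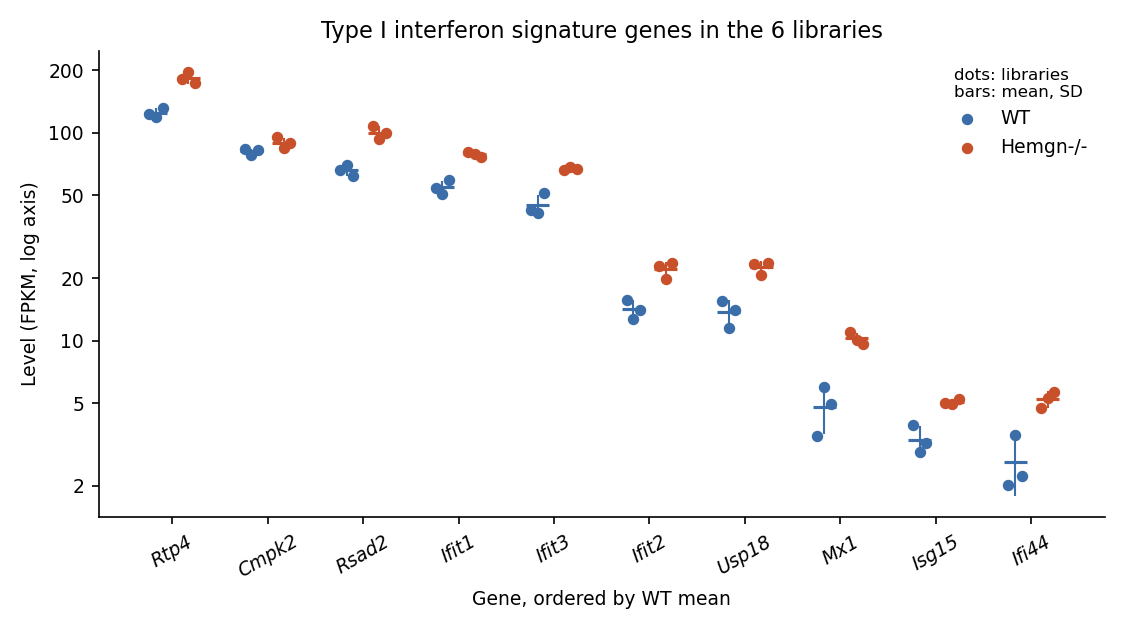
Levels of the 10 genes in each library in FPKM on a log axis, with dots for libraries and bars for the mean and SD of 3 WT (blue) and 3 Hemgn-/- (red) libraries. The dots of the groups do not overlap for any gene, and on this axis the gap is narrowest for Cmpk2, between 83.5 FPKM in WT and 84.7 FPKM in Hemgn-/-.

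The IFIT genes encode tetratricopeptide proteins that bind foreign RNA, and all 3 rose by a similar amount. Ifit1, whose protein binds RNA with an unmethylated cap, was at 54.4, 50.9 and 59.2 FPKM in WT and at 80.9, 79.0 and 77.0 FPKM in Hemgn-/- libraries. Its lowest Hemgn-/- value lay well above its highest WT value, and the log2 fold change was 0.52 ± 0.08 (SE, n = 3 per group; limma adjusted p = 0.00627). Ifit2 was at 15.6, 12.7 and 14.1 FPKM in WT and at 22.8, 19.8 and 23.5 FPKM in Hemgn-/- libraries. It was the lowest of the 3 in both groups and rose by 0.61 ± 0.11 (limma adjusted p = 0.0141). Ifit3, which binds IFIT1 and stabilizes it in human cells, was at 42.5, 41.0 and 51.3 FPKM in WT and at 66.0, 68.7 and 66.9 FPKM in Hemgn-/- libraries. The WT libraries spread more than the Hemgn-/- ones, and the change was 0.58 ± 0.09 (limma adjusted p = 0.0095). The difference Ifit3 minus Ifit1 within a library moved by 0.06 on the log2 scale between the genotypes (exact permutation test, two-sided, p = 0.2, n = 3 per group), and Ifit2 minus Ifit1 by 0.09 (exact permutation test, p = 0.5). Adjusted over 4 pairs, these permutation p-values were 0.27 and 0.5. The smallest p that 3 against 3 allows is 0.1, so these tests cannot show that the changes were equal.

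These genes lie together on chromosome 19, within 99.3 kb from the start of Ifit2 to the end of Ifit1, beside near copies. Of Ifit3, 18.5% of the 150-base windows of its longest transcript were also found in Ifit3b, so fragments of these genes may have been split between them. Ifit3b itself rose from 25.5 ± 1.1 to 43.5 ± 5.3 FPKM (SD, n = 3; log2 fold change 0.74, limma adjusted p = 0.00417). Summed, Ifit3 and Ifit3b went from 129 ± 8.52 to 204 ± 8.45 fragments per 1000000, a ratio of 1.58, and the part of Ifit3b fragments in the rise of Ifit3 was not tested. Ifit1 shared 1.24% of its windows with Ifit1bl2 and none with Ifit1bl1. Ifit1bl2 rose from 22.0 ± 2.0 to 29.1 ± 1.9 FPKM (limma adjusted p = 0.0486, under 0.05 in 4 of 15 alternatives), and Ifit1bl1 was at 14.0 ± 2.2 and 19.0 ± 0.74 FPKM (limma adjusted p = 0.0725). The sum of the 3 Ifit1 genes had a ratio of 1.40. Of the other relatives, Mx2 was at 1.14 ± 0.23 and 2.22 ± 0.31 FPKM (limma adjusted p = 0.0844), and Rtp3 was listed at 0 in all libraries but 1.

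Isg15 encodes a ubiquitin-like protein that is attached to others, and Usp18 encodes the protease that removes it and also blocks IFNAR2, damping the response. Isg15 was at 3.91, 2.89 and 3.20 FPKM in WT and at 5.01, 4.95 and 5.22 FPKM in Hemgn-/- libraries. The groups did not overlap, but the values rested on only 56 to 114 fragments per library, and the change of 0.49 ± 0.13 (SE) did not pass (limma adjusted p = 0.0639). With each library brought to the same FPKM total the adjusted p was 0.0348, and with limma's voom on recovered fragments it was 0.280. Usp18 was at 15.5, 11.5 and 14.0 FPKM in WT and at 23.3, 20.7 and 23.7 FPKM in Hemgn-/- libraries. It rose by 0.69 ± 0.12 (limma adjusted p = 0.0123), and without Hemgn-/- replicate 3 the adjusted p was 0.0633. Of its 2790 exonic bases, 124 are overlapped by Gm44148 on the other strand, and whether strand was used in counting is not given in the sources used here. The difference Usp18 minus Isg15 was 1.76 ± 0.08 in WT and 1.96 ± 0.08 in Hemgn-/- libraries (log2, SD, n = 3; exact permutation p = 0.1, the smallest that 3 against 3 allows, adjusted over 4 pairs 0.2).

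Of the 3 enzymes that attach ISG15, 1 fell and 0 rose. Ube2l6, which encodes the conjugating enzyme, was at 31.8, 31.0 and 35.5 FPKM in WT and at 21.6, 21.0 and 19.9 FPKM in Hemgn-/- libraries. It fell, with a log2 fold change of -0.63 ± 0.09 (SE; limma adjusted p = 0.00468), and was called lower in all 15 alternatives. Uba7, the activating enzyme, averaged 26.9 ± 1.4 and 32.9 ± 3.6 FPKM in WT and Hemgn-/- libraries with no overlap (SD, n = 3; limma adjusted p = 0.147). Herc6, the main ISG15 ligase of the mouse, was at 5.04 ± 0.90 and 6.73 ± 0.88 FPKM with overlapping groups (limma adjusted p = 0.201).

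Rsad2 and Cmpk2 are neighbours on chromosome 12, read away from each other with 12.8 kb between them. Rsad2 encodes viperin, which makes a chain-terminating nucleotide, and Cmpk2 encodes a mitochondrial kinase that supplies its substrate. Rsad2 was at 66.5, 70.3 and 62.3 FPKM in WT and at 108, 93.4 and 99.8 FPKM in Hemgn-/- libraries. It rose by 0.59 ± 0.08 (SE; limma adjusted p = 0.00451) and was called in all 15 alternatives. Cmpk2 was at 83.5, 78.5 and 82.3 FPKM in WT and at 95.1, 84.7 and 89.0 FPKM in Hemgn-/- libraries. These values lay close together, with a log2 fold change of 0.14 and a 95% interval from -0.03 to 0.30 (limma adjusted p = 0.324), and no alternative called it. Across the alternatives its change exceeded the median of all genes by 0.002 to 0.10 on the log2 scale. The difference Rsad2 minus Cmpk2 was -0.29 ± 0.12 in WT and 0.16 ± 0.02 in Hemgn-/- libraries (log2, SD, n = 3). Cmpk2 was the higher of the pair in every WT library and Rsad2 in every Hemgn-/- library, a shift of 0.45 (exact permutation p = 0.1, the smallest possible, adjusted over 4 pairs 0.2).

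**Figure D2:**
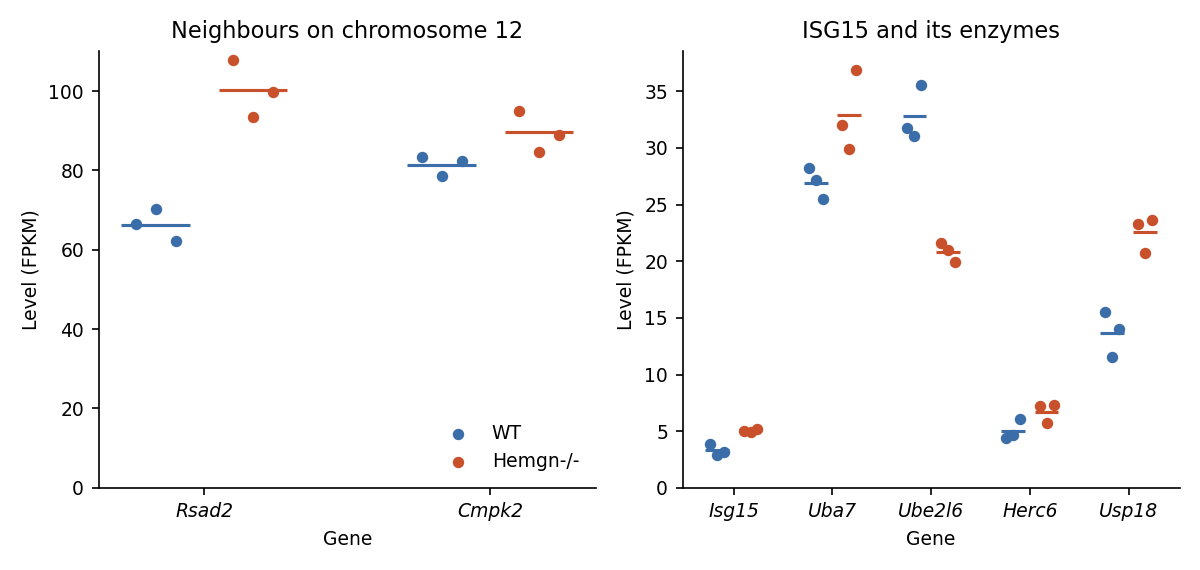
FPKM in each library for Rsad2 and Cmpk2 (left) and for Isg15, its attaching enzymes Uba7, Ube2l6 and Herc6, and its protease Usp18 (right), with dots for WT (blue) and Hemgn-/- (red) libraries and lines for group means on linear axes from 0. Rsad2 moves from below Cmpk2 to above it, and Ube2l6 is the only gene shown that is lower in Hemgn-/- libraries.

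Mx1 and Ifi44 had the highest fold changes of the 10 genes and low levels. Mx1, which encodes a GTPase against influenza viruses, was at 3.46, 6.00 and 4.95 FPKM in WT and at 11.0, 10.1 and 9.64 FPKM in Hemgn-/- libraries. The highest WT library was still below the lowest Hemgn-/- one, and the change was 0.98 ± 0.17 (SE; limma adjusted p = 0.0112). With no filter on low values the adjusted p was 0.0514. Common laboratory strains, C57BL/6 among them, carry a defective Mx1 gene, so the level is that of a transcript and not of a working protein. Ifi44, a gene of antiviral function that is less well defined, was at 2.03, 3.52 and 2.23 FPKM in WT and at 4.71, 5.26 and 5.66 FPKM in Hemgn-/- libraries. It rose by 0.81 ± 0.17 (limma adjusted p = 0.0290), but the adjusted p ran from 0.0550 to 0.115 when any library other than WT replicate 2 was left out.

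Rtp4, which encodes a receptor-transporting protein, was the most abundant of the 10 genes per length. It was at 124, 119 and 132 FPKM in WT and at 182, 197 and 173 FPKM in Hemgn-/- libraries. The change of 0.56 ± 0.07 (SE) had the lowest adjusted p of the 10 genes (limma, 0.00378) and was called in all 15 alternatives. Of its 2131 exonic bases, 296 also belong to Gm45338 on the same strand, so some fragments could have been assigned to either.

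**Figure D3:**
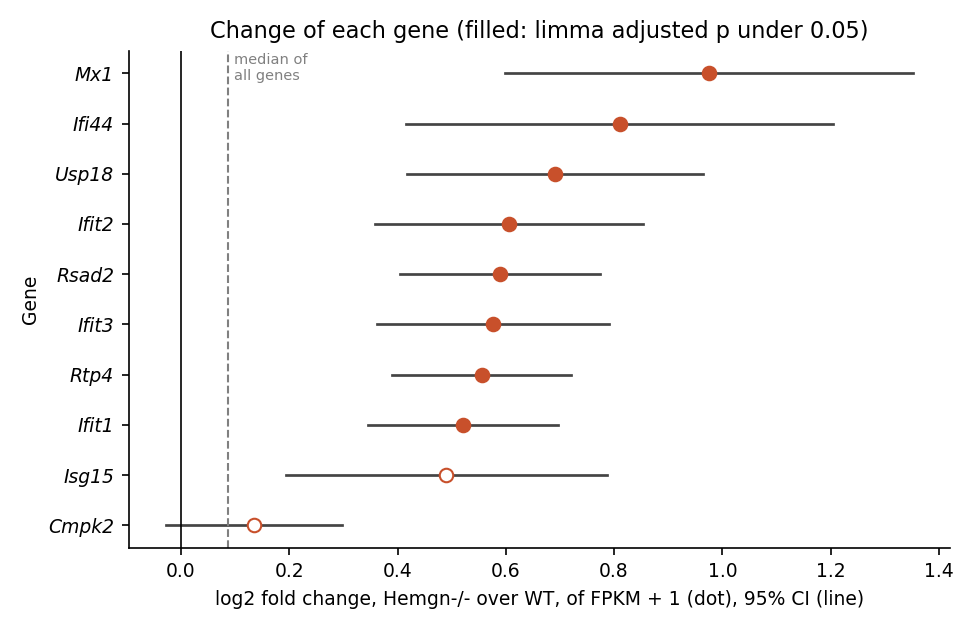
Log2 fold change of each gene (dot) with its 95% interval (line), Hemgn-/- over WT, on FPKM + 1, with filled dots for a limma adjusted p under 0.05 and a dashed line at the median of all genes tested, 0.09. The interval of Cmpk2 alone includes 0, and the intervals of Mx1 and Ifi44 are the widest.

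The order of levels per length was nearly kept between the genotypes. In WT libraries the order of mean FPKM was Rtp4, Cmpk2, Rsad2, Ifit1, Ifit3, Ifit2, Usp18, Mx1, Isg15 and Ifi44. The ranges over libraries overlapped between Ifit1 and Ifit3, between Ifit2 and Usp18, and along Mx1, Isg15 and Ifi44, so those neighbours were not separated. In Hemgn-/- libraries Rsad2 stood before Cmpk2, Usp18 before Ifit2 and Ifi44 before Isg15, each with overlapping ranges. Rtp4 lay at the 98.1st percentile of mean level among genes tested and Ifi44 at the 47.8th. The coefficient of variation ran from 3.18% for Cmpk2 to 31.3% for Ifi44 in WT, and from 2.00% for Ifit3 to 9.14% for Ifi44 in Hemgn-/- libraries. It was larger in WT for 7 of the 10 genes. The genes did not follow a single order of libraries, since WT replicate 2 was the lowest WT library for 7 genes but the highest for Rsad2, Mx1 and Ifi44.

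Related genes were read from lists of ligands, receptors, sensors, brakes, ISG15 enzymes, relatives, other type I targets and genes that prefer IFN-γ, 100 genes tested in all. Of these, 43 rose and 2 fell, with a median log2 fold change of 0.41, against 4.37% and 2.09% of all genes. Without the genes that prefer IFN-γ, 27 of 76 rose and 2 fell, and leaving out 1 library called 10 (without Hemgn-/- replicate 3) to 22 higher. Ligands were scarce. Of 21 interferon genes looked for, 4 were listed and the other 17, Ifnb1 among them, were not analysed here. Ifng, the type II ligand, was at 3.10, 2.47 and 2.01 FPKM in WT and at 3.71, 3.30 and 3.69 FPKM in Hemgn-/- libraries (limma adjusted p = 0.193). Ifna13 was at 0.400 FPKM in Hemgn-/- replicate 1 and listed at 0 in the others, and Ifnk did not exceed 0.787 FPKM.

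Among the 7 receptor, kinase and ISGF3 genes, 1 rose and 0 fell, with a median of 0.29. Ifnar1, the receptor chain that binds TYK2, went from 12.3 ± 1.1 to 17.1 ± 0.87 FPKM (SD, n = 3; log2 fold change 0.45, limma adjusted p = 0.0332, under 0.05 in 5 of 15 alternatives). Ifnar2 was at 22.5 ± 3.5 and 23.9 ± 2.2 FPKM with overlapping groups (limma adjusted p = 0.703). Over all genes tested, 19.2% were higher with no overlap. Tyk2, Jak1, Stat2 and Irf9 were higher in every Hemgn-/- library without passing. Among them Tyk2 was at 7.75 ± 0.66 and 11.8 ± 2.2 FPKM (limma adjusted p = 0.0641). Jak1 had an adjusted p of 0.149, Stat2 of 0.170 and Irf9 of 0.182 in limma. The difference between this list and the 10 signature genes was not tested.

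Of 13 sensors and inducers tested, 4 rose and 1 fell, with a median of 0.39. Irf5, a transcription factor for interferon genes, went from 18.0 ± 2.0 to 29.4 ± 3.8 FPKM (limma adjusted p = 0.0148), Zbp1, a sensor of Z-form nucleic acid, from 25.3 ± 0.93 to 37.5 ± 3.8 FPKM (limma adjusted p = 0.0112), and Ddx58, which encodes the RNA sensor RIG-I, from 29.7 ± 1.9 to 41.4 ± 2.0 FPKM (limma adjusted p = 0.0133). Without Hemgn-/- replicate 3, and with eBayes without a trend, 0 of the sensors were called higher, and 2 without WT replicate 3. Cgas, the sensor of cytosolic DNA, fell from 2.60 ± 0.28 to 1.23 ± 0.25 FPKM (log2 fold change -0.69, limma adjusted p = 0.0415), and stayed under 0.05 in 7 of 15 alternatives. Ikbke was at 4.90 ± 0.80 and 4.58 ± 0.11 FPKM and its direction changed in 2 of 15 alternatives.

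Of 7 brakes on the pathway, 4 rose and 0 fell, with a median of 0.39, and 2 were called without Hemgn-/- replicate 3, 2 with median-ratio scaling and 1 with eBayes without a trend. Socs3, an inhibitor of JAK signalling that responds mostly to other cytokines, rose most, from 68.5 ± 5.2 to 123 ± 4.6 FPKM (limma adjusted p = 0.000663). Adar, which edits double-stranded RNA, went from 9.80 ± 0.87 to 14.8 ± 2.0 FPKM (limma adjusted p = 0.0339, under 0.05 in 5 of 15 alternatives), and Samhd1, which degrades nucleotides, from 79.6 ± 3.1 to 107 ± 7.7 FPKM (limma adjusted p = 0.0144). Socs1 was at 39.4 ± 2.9 and 46.7 ± 2.8 FPKM (limma adjusted p = 0.149), and Ptpn2 at 9.37 ± 0.90 and 11.0 ± 0.96 FPKM (limma adjusted p = 0.312).

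Of 41 other genes known to respond to type I interferon, 16 rose and 0 fell, with a median of 0.36. Only 7 were called without Hemgn-/- replicate 3, 9 without Hemgn-/- replicate 2, 9 without WT replicate 3, 10 without WT replicate 1, 10 with median-ratio scaling, 9 without the filter and 5 with eBayes without a trend. Ms4a4c, a membrane protein gene, went from 48.7 ± 4.1 to 87.9 ± 3.1 FPKM (limma adjusted p = 0.000918), Oasl1, a relative of the oligoadenylate synthetases, from 23.6 ± 1.7 to 42.4 ± 3.7 FPKM (limma adjusted p = 0.00236), and Slfn5 from 12.8 ± 2.6 to 22.4 ± 0.75 FPKM (limma adjusted p = 0.0141). Ifitm3, which blocks viral entry, was at 432 ± 4.9 and 388 ± 58 FPKM (limma adjusted p = 0.390), and Parp12 at 3.92 ± 1.4 and 3.30 ± 0.098 FPKM, with a direction that changed in 1 of 15 alternatives. Cmpk2 was thus not the only known target that was not called higher.

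Of 24 genes tested that respond preferentially to IFN-γ, 16 rose and 0 fell, with a median of 0.61, beside 0.58 for the 10 signature genes. Without Hemgn-/- replicate 3 the count was 10. Cxcl10, a chemokine for T cells, rose from 6.53 ± 1.1 to 17.8 ± 2.4 FPKM (limma adjusted p = 0.00158), and Gbp2, a guanylate-binding protein gene, from 28.2 ± 2.5 to 61.4 ± 1.8 FPKM (limma adjusted p = 0.000263), both in all 15 alternatives. Cxcl9, a chemokine for the same receptor, went from 1.24 ± 0.25 to 4.14 ± 1.6 FPKM (limma adjusted p = 0.0176). Psmb10 and Psmb8, subunits of the immunoproteasome, had adjusted p-values of 0.621 and 0.351 in limma. The ISRE letters were in the promoters of 11 of 18 matched genes of this list and of 12 of 34 of the other type I list, and TTCNNNGAA in 8 of 18 and 7 of 34. The 8 signature genes that passed rose beside genes of this list. Many genes answer to both kinds of interferon, so the lists do not separate them, and the part of each ligand was not tested.

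**Figure D4:**
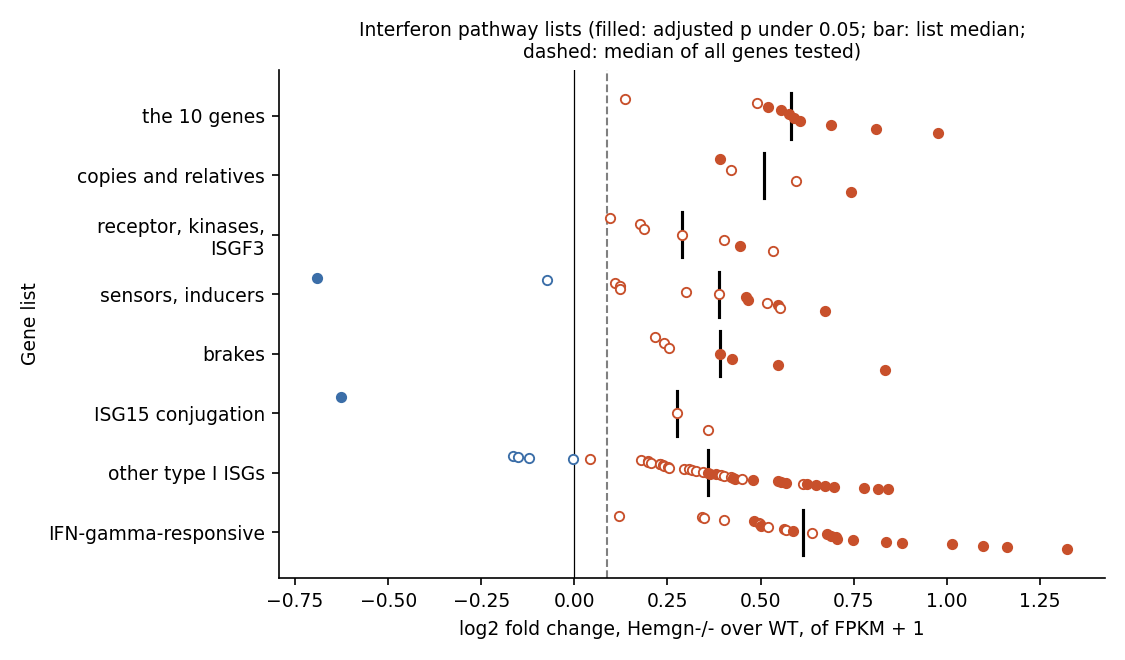
Log2 fold changes, Hemgn-/- over WT on FPKM + 1, of each gene tested in 8 lists, with filled dots for a limma adjusted p under 0.05 (red above 0, blue below), black bars for list medians and a dashed line at the median of all genes. The medians run from 0.28 for ISG15 conjugation to 0.61 for IFN-γ-responsive genes, and the 2 filled blue dots are Cgas and Ube2l6.

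Markers of other cell types moved with genotype, and their part in these results was not tested. The sum of 9 neutrophil markers was 75369 to 81485 FPKM in WT and 49771 to 55026 in Hemgn-/- libraries, with 5 called lower. Of 9 erythroid markers tested 5 were called lower, and the list sum was 462 to 550 FPKM in WT and 32.4 to 51.7 in Hemgn-/- libraries, with Hba-a2 listed at 0 in 2 of them. Eosinophil and basophil markers summed to 687 to 800 and 530 to 563 FPKM, and the 2 of 5 called lower were the eosinophil genes Epx and Prg2. The others, Mcpt8, Cpa3 and Prss34, had log2 fold changes of -0.10, 0.27 and 0.06 and were not called. Plasmacytoid dendritic cells are the main makers of type I interferon. Of their 6 markers 3 were called higher, against 4.37% of all genes tested. Siglech was at 4.30 ± 0.54 and 10.8 ± 1.7 FPKM (limma adjusted p = 0.0028), and the list sums were 11.9 to 13.0 and 22.9 to 26.7 FPKM. Siglech was called in all 15 alternatives, Klk1 in 9 and Pacsin1 in 5. B-cell markers summed to 1160 to 1221 and 1380 to 1554 FPKM, with 3 of 7 called higher, Cd79b among them in only 5 of 15 alternatives. Vpreb1 and Ebf1 had log2 fold changes below 0, -0.39 and -0.04, and were not called. T and NK markers summed to 130 to 139 and 154 to 183 FPKM, with 3 of 8 called higher. Of 10 monocyte and macrophage markers 2 were called higher and 2 lower, of 3 endothelial markers tested none, and of 9 HSPC markers tested only Cd34 was called higher. The HSPC list summed to 35.9 to 41.8 FPKM in WT and to 43.2 to 51.7 FPKM in Hemgn-/- libraries, but its genes did not move together. Of the 9 tested, 5 had log2 fold changes above 0 and 4 below. Ly6a was at 0.58 (limma adjusted p = 0.0642), Kit at -0.18 (limma adjusted p = 0.398) and Cd34 at 0.45, called in 4 of 15 alternatives. Summed over the 10 signature genes, the level was 396 to 425 FPKM in WT and 574 to 599 FPKM in Hemgn-/- libraries.

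**Figure D5:**
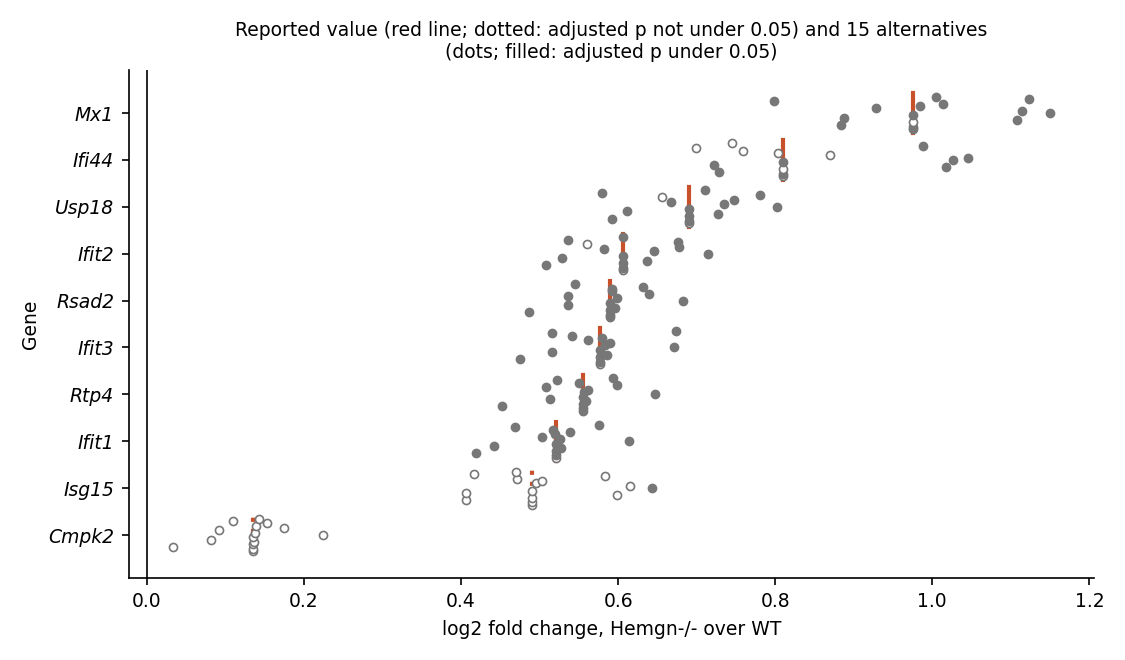
Log2 fold change of each gene as reported (red line, dotted where the limma adjusted p was not under 0.05) and in 15 alternatives (dots, filled for an adjusted p under 0.05). No dot lies below 0, Rsad2 and Rtp4 are filled throughout, and Cmpk2 is open throughout.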

How the data were processed

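The authors deposited 1 table of FPKM values per gene with 1 column per library, and FPKM are fragments divided by gene length and library total. The submitters' processing notes name GRCm38, HISAT2 2.1.0, HTSeq 0.6.0, Bowtie2 2.2.3 and TopHat2 without their roles. The study gives Smart-Seq2 cDNA and tail vein injection, and the labels give TruSeq and the retro-orbital route. The study calls the 3 libraries of a group biological replicates without naming their animals, so p-values measure the spread between these libraries. Groups followed the genotype label.

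Ensembl identifiers were matched to GENCODE M21 on GRCm38 (24921 of 24965). Depth was recovered from steps between low FPKM values, which were whole fragments in all 6 libraries for 95.7% of 13478 genes of at most 100 fragments (tolerance 0.05). Genes were tested if any library exceeded 1 FPKM. The test was limma 3.58.1, run in R 4.3.3 (lmFit, eBayes with a trend, two-sided, all 6 libraries, no covariate) on log2(FPKM + 1), which understates changes of low genes. The method was tested on simulated data. Of 4 within-library pairs, differences were compared by exact permutation. Python 3.11.15, pandas 2.3.3 and scipy 1.17.1 were also used.

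The signature genes and all lists were chosen with earlier results of these data known. Named are the 10 genes, Hemgn, all listed ligands above 0.1 FPKM, receptors, conjugating enzymes and relatives, the 3 highest called and the 2 lowest genes of the other lists, and the 5 genes of mean FPKM at least 1 closest to the signature. A gene covered by this rule is not reported here, although it entered the counts. Marker genes named as examples were picked after their values were seen. Alternatives were a pseudocount of 0.1, other filters (no filter, a mean FPKM of at least 1) and scalings (median-ratio, a common FPKM total, quantile), a block for the replicate number, eBayes without a trend and each library left out. Limma's voom on the recovered fragments was added after seeing the data.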

Additional observations from a re-analysis of the deposited data

How the results depend on the processing

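Of 150 values, 15 alternatives for each of the 10 genes, none changed direction, 14 lost the call and 1 gained it. eBayes without a trend left 3 of the 10 genes called (Rsad2, Mx1 and Rtp4), 390 of all genes and 21 of the pathway genes, and the genes lost had adjusted p-values from 0.0544 (Usp18) to 0.0651 (Ifi44). Without a filter on low values 6 of the 10 genes and 466 of all genes were called, with Mx1 and Ifi44 (adjusted p = 0.0985) lost. Rescaling to a common FPKM total called 9, with Isg15 gained. Leaving out each library in turn gave 5 to 8 of the 10 genes, 373 to 688 of all genes against 887, and 21 to 39 of the pathway genes against 45. The lowest counts were without Hemgn-/- replicate 3, where Ifit2 (adjusted p = 0.0703), Usp18 and Ifi44 were lost. Of all genes, 470 were called without WT replicate 1. The count was 494 without WT replicate 3, and 525 without Hemgn-/- replicate 2. The voom fit called 8 of the 10 genes. Isg15 had 56 to 114 fragments per library, the fewest of the 10 genes.

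Deviations from the group mean were hardly correlated between same-numbered libraries of the 2 genotypes (correlations of -0.043, -0.0094 and 0.011 for replicates 1, 2 and 3). Only WT replicate 3 correlated best with the library of its own number. Such small correlations cannot show whether the numbers pair the samples, and the sources used here do not say. With the replicate block 8 of the 10 genes, 636 of all genes and 37 of the pathway genes were called.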

Other observations

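The genes whose pattern over the 6 libraries was most like the mean of the standardised signature genes, among 11656 genes compared, were Gm43305, Ap5s1, Gm42031, BC147527 and Fchsd2, with Pearson r from 0.996 to 0.998. The 6 points fall into 2 groups, so genes chosen this way separate the genotypes through the choice itself. All 5 genes were higher in every Hemgn-/- library, as were 19.2% of all genes tested, and their changes are given as a description. Gm42031, a predicted gene, went from 7.87 ± 0.46 to 35.8 ± 5.4 FPKM (SD, n = 3; log2 fold change 2.04, limma adjusted p = 4.07e-05). Gm43305 went from 10.3 ± 0.94 to 22.7 ± 1.7 FPKM and BC147527 from 8.59 ± 0.67 to 17.2 ± 1.7 FPKM. Ap5s1, which encodes a subunit of an adaptor complex of late endosomes, went from 6.07 ± 0.10 to 9.25 ± 0.48 FPKM, and Fchsd2, which encodes a membrane-bending endocytic protein, from 4.23 ± 0.046 to 6.57 ± 0.11 FPKM.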
